A study of Homo sapiens with 6 samples.

Results

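The 10 genes described here are markers of colorectal cancer stem cells or intestinal stem cells other than CD44, and they were read in COLO-320DM cells sorted by CD44. The genes were PROM1, EPCAM, CD24, ALCAM, DCLK1, HOPX, BMI1, LRIG1, OLFM4 and SMOC2. A gene entered where the array held a probe set annotated to it alone. That gave 25 of the 54675 probe sets, for 9 of the 10 genes. The only probe set of BMI1 is shared with the read-through transcript COMMD3-BMI1, so BMI1 has no probe set of its own and its signal is given as a shared one. COLO-320DM is an established human colorectal cancer cell line, and both groups came from this 1 line with no treatment, sorted into CD44-positive and CD44-negative cells. Each group had 3 arrays of total RNA, numbered 01, 02 and 03 in the labels. The labels did not say that the numbers stand for separate cultures, so the spread behind each p-value may be a technical one.

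The intestinal epithelium is renewed by stem cells at the crypt base. Colorectal tumours hold cells with features of these stem cells, and surface proteins such as CD133 (PROM1), EpCAM, CD24, CD166 (ALCAM) and CD44 have been used to sort them. The other genes come from studies of the normal crypt. OLFM4 and SMOC2 mark the rapidly cycling stem cells, HOPX, LRIG1 and BMI1 were described in more slowly cycling stem cells, and DCLK1 marks tuft cells and tumour stem cells of the mouse intestine. Several of these genes are active in other cell types too, such as HOPX in muscle and lung, DCLK1 in neurons and SMOC2 in fibroblasts.

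Of the 9 genes with a probe set of their own, 6 lay above the limit set for dim genes (the 30th percentile of gene means, 5.12 on the log2 scale) and were tested. None of the 6 passed the main test of CD44-positive against CD44-negative cells. No gene of the 13842 tested did, the sort marker CD44 included, so not passing says little about a single marker. DCLK1 and ALCAM read higher and CD24 and HOPX lower in the CD44-positive member of all 3 pairs of same-numbered arrays, while LRIG1 and SMOC2 had mixed signs. EPCAM, PROM1 and OLFM4 lay below the limit in every array. Each difference below is the CD44-positive level less the CD44-negative one, in log2 units, and levels are log2 intensities. Unless another is named, the probe set with the highest mean stands for its gene. On an array a level can be compared between samples but not between probe sets, so the genes are not ranked against each other by level.

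**Figure D1:**
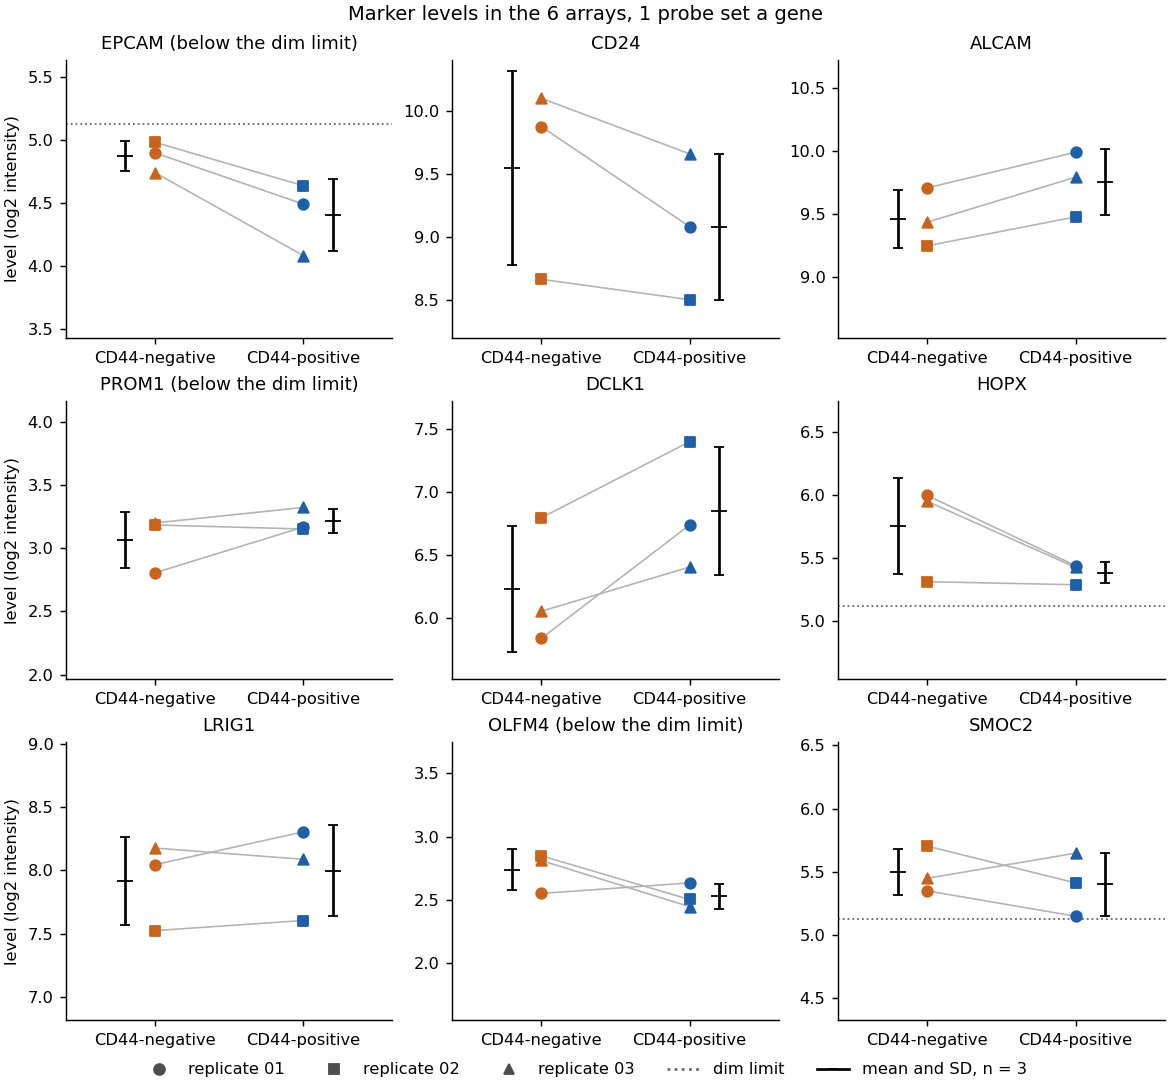
Levels (log2 intensity) of the 9 markers in the 6 arrays, with the CD44-negative group on the left and the CD44-positive group on the right of each panel. Symbols stand for the replicate numbers, grey lines join same-numbered arrays, bars give the mean and SD over 3 arrays, and the dotted line is the dim limit of 5.12. Every panel spans the same number of log2 units. All 3 lines rise for DCLK1 and ALCAM and fall for CD24, HOPX and EPCAM, and only in EPCAM do the groups not overlap.

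The sort was visible in the arrays. CD44 averaged 7.70 ± 0.52 after positive and 5.23 ± 0.22 after negative sorting (SD, n = 3), with no overlap (limma, adjusted p = 0.106, and 0.00176 with the replicate number as a block). Median intensities of the arrays lay between 44.9 and 46.5, and log2 values correlated between arrays at 0.991 to 0.997. The deposited values were made with RMA, which in general normalizes by quantiles, so near-equal medians are no check of array quality. The 3′ minus 5′ difference of GAPDH, a measure of RNA integrity, was -0.081 ± 0.031 and -0.071 ± 0.010 (SD, n = 3) in CD44-positive and CD44-negative arrays. With limma, no gene of the 13842 tested passed an adjusted p of 0.05 without the block (0%), where 273 had an unadjusted p under 0.05 (1.97%). With the block 8 passed (0.0578%), and 1037 had an unadjusted p under 0.05 (7.49%). Same-numbered arrays deviated together (processing section), so both fits are given.

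Promoter windows are shown for the 4 tested markers that kept 1 sign in all pairs, so that the start regions of the genes that read higher can be set beside those that read lower. They are the 250 bases before an annotated start, on the gene's strand, from RefSeq on GRCh38.p14, where 8 of the 9 genes with a probe set of their own had 19 such windows. DCLK1 and CD24 have 3 annotated starts and HOPX has 2, and the first and the last of each are given. ALCAM has 1. Capitals mark matches on either strand to ATCAAAG (the TCF/LEF motif of Wnt signalling), CACCTG (an E-box) or TGANTCA (AP-1). The windows lie at chr13:36131940-36132189 and chr13:35855668-35855917 for DCLK1, chr3:105366659-105366908 for ALCAM, chr6:106975628-106975877 and chr6:106974040-106974289 for CD24, and chr4:56681297-56681546 and chr4:56656518-56656767 for HOPX, all on the minus strand except that of ALCAM.
DCLK1, first start: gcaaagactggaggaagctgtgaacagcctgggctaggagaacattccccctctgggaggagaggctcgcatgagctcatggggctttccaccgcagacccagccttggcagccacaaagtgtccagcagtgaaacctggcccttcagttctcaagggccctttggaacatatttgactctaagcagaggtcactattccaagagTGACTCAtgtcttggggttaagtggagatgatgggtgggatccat
DCLK1, last start: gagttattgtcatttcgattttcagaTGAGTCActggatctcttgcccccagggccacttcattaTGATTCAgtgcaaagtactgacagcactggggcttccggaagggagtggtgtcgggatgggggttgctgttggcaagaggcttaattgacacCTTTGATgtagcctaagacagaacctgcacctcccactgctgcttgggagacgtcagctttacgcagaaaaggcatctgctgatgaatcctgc
ALCAM: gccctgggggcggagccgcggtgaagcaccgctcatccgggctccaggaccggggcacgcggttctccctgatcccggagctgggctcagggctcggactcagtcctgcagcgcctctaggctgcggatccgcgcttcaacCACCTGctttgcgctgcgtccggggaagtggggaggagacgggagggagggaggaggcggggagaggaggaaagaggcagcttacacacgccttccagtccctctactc
CD24, first start: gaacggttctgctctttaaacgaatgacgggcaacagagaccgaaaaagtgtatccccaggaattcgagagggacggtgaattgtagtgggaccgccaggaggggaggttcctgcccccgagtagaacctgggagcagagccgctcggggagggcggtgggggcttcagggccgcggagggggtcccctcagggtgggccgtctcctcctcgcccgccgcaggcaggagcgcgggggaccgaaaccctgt
CD24, last start: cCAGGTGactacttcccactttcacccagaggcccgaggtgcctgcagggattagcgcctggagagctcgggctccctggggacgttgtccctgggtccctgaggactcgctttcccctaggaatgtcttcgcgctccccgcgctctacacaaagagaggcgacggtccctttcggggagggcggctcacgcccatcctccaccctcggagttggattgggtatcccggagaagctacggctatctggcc
HOPX, first start: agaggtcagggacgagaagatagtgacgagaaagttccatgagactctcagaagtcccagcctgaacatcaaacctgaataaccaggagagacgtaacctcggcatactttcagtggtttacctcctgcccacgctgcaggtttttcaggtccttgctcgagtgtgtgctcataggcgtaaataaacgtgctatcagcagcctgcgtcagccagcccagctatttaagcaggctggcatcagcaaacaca
HOPX, last start: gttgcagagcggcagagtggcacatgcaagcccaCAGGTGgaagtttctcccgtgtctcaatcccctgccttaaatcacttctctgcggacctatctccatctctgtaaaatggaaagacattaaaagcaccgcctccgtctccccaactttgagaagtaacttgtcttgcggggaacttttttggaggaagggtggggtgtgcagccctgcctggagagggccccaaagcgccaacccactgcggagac

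The last DCLK1 window held 1 TCF/LEF and 2 AP-1 matches, the first held 1 AP-1 match, and the ALCAM window held 1 E-box. The last windows of CD24 and HOPX held 1 E-box each, and their first windows held none of these letters. The middle windows of DCLK1 and CD24, which are not shown, held none either. Matches thus occurred in windows of all 4 genes. Among all 35116 windows of this length, 2.26% held the TCF/LEF letters, 17.5% the E-box and 6.57% the AP-1 letters. Among the 19 windows of the markers these were held by 2, 7 and 5, and no matches of different motifs overlapped. A TATA box (TATAAA, read on the gene's strand) was in none of the 19 and in 6.8% of all. GC content was 54% and 50.8% in the first and last DCLK1 windows, 68.8% for ALCAM, 65.6% and 64% for CD24 and 50.8% and 54.8% for HOPX, against a median of 58.0% over all windows. A match is a description of letters and shows neither binding nor a cause. The arrays measured transcripts and not which start was used.

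DCLK1 and ALCAM were the tested markers that read higher in the CD44-positive array of all 3 pairs. DCLK1 encodes doublecortin-like kinase 1, a protein kinase that binds microtubules. Its levels were 6.74, 7.40 and 6.40 in CD44-positive arrays 01, 02 and 03, and 5.84, 6.79 and 6.05 in the CD44-negative arrays of the same numbers. Both arrays numbered 02 were high, and CD44-negative array 02 exceeded CD44-positive arrays 01 and 03, so the groups overlapped. The means were 6.85 ± 0.51 and 6.23 ± 0.50 (SD, n = 3), and limma put the difference at 0.62 ± 0.30 (SE), which is 1.53-fold. Within pairs the differences were 0.90, 0.60 and 0.35. The 95% confidence interval was -0.08 to 1.31 without the block (limma, adjusted p = 1.00) and 0.37 to 0.86 with it (adjusted p = 0.144). Without pair 03 the blocked difference was 0.75 and passed (limma, adjusted p = 0.00712). DCLK1 also passed with the block under a variance trend with robust moderation (limma, adjusted p = 0.0220) and under array weights (adjusted p = 0.0402). In these settings 127, 78 and 43 of the 13842 genes tested passed, against 8 with the block alone. The unblocked difference was 0.34 when CD44-positive array 02 was left out. It was 0.42 without CD44-negative array 01, 0.90 without CD44-negative array 02 and 0.96 with array weights. DCLK1 had 4 probe sets, and the other 3 lay below the dim limit, with means over the 6 arrays of 3.03, 2.77 and 2.41 and differences of 0.29, -0.14 and -0.05. The DCLK1 values above thus rest on 1 probe set.

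The relatives of DCLK1 were read beside it. DCLK2, which has the same domain plan, stood at 7.49 ± 0.10 and 7.55 ± 0.21 (SD, n = 3), a difference of -0.06 with an interval of -0.35 to 0.23. DCLK3 and DCX, the neuronal doublecortin, were dim, with means of 2.88 and 2.87 for DCLK3 and of 3.06 and 3.12 for DCX. The difference between DCLK1 and its relatives was not tested. Since DCLK1 marks tuft cells, 14 other tuft cell markers were read. Of these 13 had a probe set, 5 of these were dim, among them POU2F3, the transcription factor that specifies tuft cells, at 3.04 and 2.86, and the channel gene TRPM5 at 4.59 and 4.64. Of the 8 tested, 7 read higher and 1 lower, none passed with or without the block, and the smallest unadjusted p values belonged to the interleukin receptor IL17RB at a difference of 0.13, ALOX5 at 0.13, PTGS1 at 0.10 and GFI1B at 0.06. The summed intensity of the list ranged over 933 to 1050 (CD44-positive) and 919 to 938 (CD44-negative). Of 10 neuroendocrine markers 8 had a probe set and 5 of these were dim, including CHGA and INSM1. ENO2, the neuronal enolase, followed the replicate number as DCLK1 did, at 4.79, 6.58 and 4.88 against 4.01, 6.36 and 4.43, a difference of 0.49 (limma, adjusted p = 0.272 with the block). SYP, the synaptic vesicle gene synaptophysin, differed by 0.17 with no overlap between groups, and the neural adhesion gene NCAM1 by 0.08. The summed intensity of the neuroendocrine list ranged over 194 to 281 (CD44-positive) and 176 to 254 (CD44-negative). The part of such cell states in the DCLK1 difference was not tested. In bulk RNA, fewer cells of a type and less RNA per cell cannot be told apart.

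The 3 tested genes whose profile over the 6 arrays lay closest to that of DCLK1, by the root mean square distance of deviations from each gene's own mean, were KLHL41 (0.105), ERC2 (0.108) and OXCT1 (0.110). For comparison, the SD of DCLK1 over the 6 arrays was 0.56. All 3 were highest in CD44-positive array 02, and their differences were 0.46, 0.70 and 0.52. With 6 arrays and 13842 genes, such likeness is a description only.

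ALCAM encodes CD166, an adhesion molecule of the immunoglobulin superfamily. Its levels were 9.99, 9.48 and 9.79 in CD44-positive arrays 01, 02 and 03 and 9.71, 9.25 and 9.43 in the CD44-negative arrays. Each pair moved by a similar amount, 0.28, 0.23 and 0.36, but arrays numbered 02 were low in both groups and the groups overlapped. The means were 9.75 ± 0.26 and 9.46 ± 0.23 (SD, n = 3), which differed by 0.29 ± 0.16 (SE) or 1.22-fold. Its interval was -0.08 to 0.66 without the block (limma, adjusted p = 1.00) and 0.13 to 0.45 with it (adjusted p = 0.310). The unblocked value was 0.17 without CD44-positive array 01, 0.18 without CD44-negative array 02 and 0.11 with array weights. A second probe set above the limit differed by 0.30, with pair values of 0.22, 0.21 and 0.47. The remaining one, dim at means of 4.41 and 3.94, differed by 0.47 with no overlap between the groups. All 3 ALCAM probe sets thus read higher in all 3 pairs, though probe sets of 1 gene share their RNA and are not separate evidence. Its relatives MCAM and BCAM differed by 0.01 and 0.05, with intervals of -0.23 to 0.25 and -0.16 to 0.25.

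CD24 and HOPX read lower in CD44-positive cells. CD24 is a small, heavily glycosylated protein on a lipid anchor, used with CD44 in sorting schemes for several carcinomas. Its levels were 9.08, 8.50 and 9.66 in CD44-positive arrays 01, 02 and 03 and 9.87, 8.66 and 10.10 in the CD44-negative arrays. Arrays numbered 02 were low and those numbered 03 high in both groups, and CD44-negative array 02 lay below 2 of the 3 CD44-positive arrays. The means were 9.08 ± 0.58 and 9.55 ± 0.77 (SD, n = 3), and limma gave -0.46 ± 0.40 (SE), a 1.38-fold lower level. The pairs differed by -0.79, -0.16 and -0.44. The interval was -1.39 to 0.46 without the block (limma, adjusted p = 1.00) and -0.74 to -0.19 with it (adjusted p = 0.341). Without pair 02 the blocked difference was -0.62 and passed (limma, adjusted p = 0.0464). In that setting 63 of the 13842 genes tested passed, against 8 with all pairs. Leaving out single arrays moved the unblocked difference between -0.18, without CD44-positive array 02, and -0.91, without CD44-negative array 02; it was -0.19 without CD44-negative array 03 and -0.30 without CD44-negative array 01. Without CD44-positive array 03 it was -0.75, with array weights -0.79, and without pair 01 the blocked difference was -0.30.

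All 6 probe sets of CD24 lay above the dim limit, and all 18 of their pair differences were below 0. Their group differences ranged from -0.64 to -0.33, and none passed when every probe set was tested by itself with the block (limma, lowest adjusted p = 0.101). Each of the 6 carries a suffix for shared or cross-hybridising sequence (_s_at or _x_at), and CD24 has processed pseudogene copies in the genome. The gene identity of this signal is thus less certain than for DCLK1 and ALCAM. Such a suffix is also carried by the tested probe set of HOPX, all 4 of LRIG1 and the single ones of EPCAM, PROM1 and OLFM4. The tested genes closest in profile to CD24, by the same distance, were VWDE (0.152), PGM2L1 (0.168) and RAB26 (0.173), against an SD of 0.66 for CD24 over the 6 arrays. All 3 were lowest in arrays numbered 02, and their differences were -0.53, -0.18 and -0.27.

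HOPX encodes a small homeodomain protein that does not bind DNA. Its levels were 5.44, 5.29 and 5.43 in CD44-positive arrays 01, 02 and 03 and 6.0, 5.31 and 5.95 in the CD44-negative arrays. The CD44-positive arrays were alike and close to the dim limit. In the CD44-negative group arrays 01 and 03 were high and array 02 was at the CD44-positive level. The pairs differed by -0.56, -0.02 and -0.52, and the means, 5.38 ± 0.08 and 5.75 ± 0.38 (SD, n = 3), by -0.37 ± 0.18 (SE). The interval was -0.78 to 0.04 without the block (limma, adjusted p = 1.00) and -0.63 to -0.11 with it (adjusted p = 0.470). The value was -0.59 without CD44-negative array 02 and -0.22 with the block and array weights. The probe sets of HOPX disagreed. A dim one read higher in the CD44-positive arrays, at 4.25 against 4.02 with pair values of 0.12, 0.46 and 0.13, and the remaining one, at 2.38 and 2.40, had mixed signs.

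**Figure D2:**
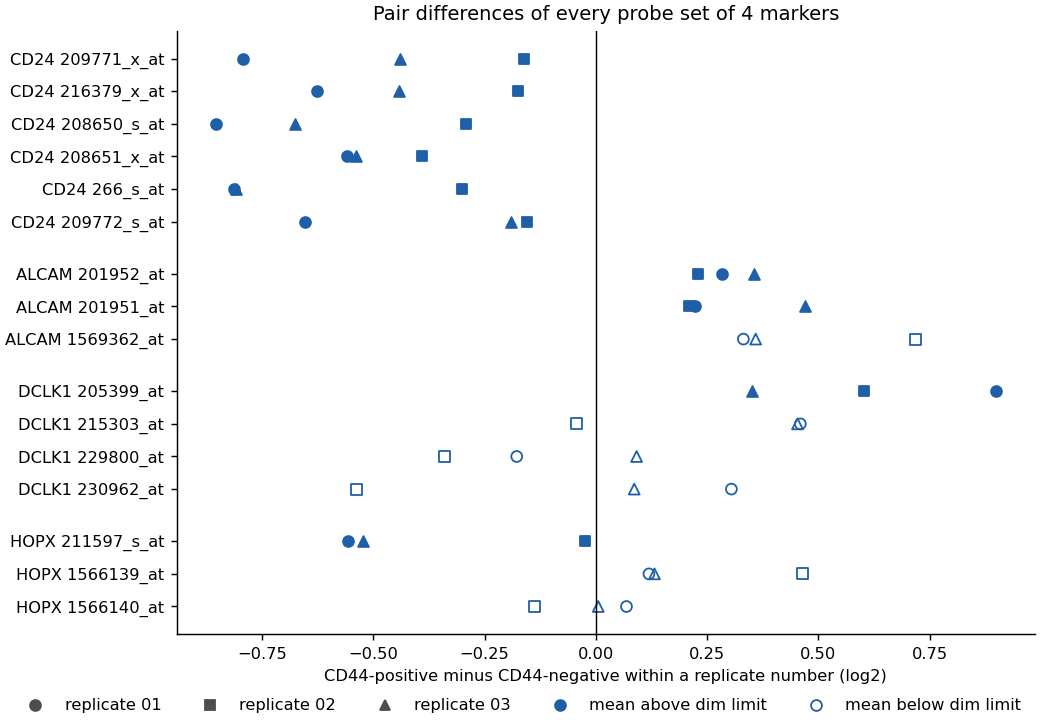
CD44-positive minus CD44-negative difference (log2) within each replicate number, for every probe set of CD24, ALCAM, DCLK1 and HOPX, ordered within a gene by mean level. Filled symbols are probe sets with a mean above the dim limit and open symbols those below it. The 18 CD24 values all lie left of 0 and the 9 ALCAM values right of it, while the dim probe sets of DCLK1 and HOPX scatter on both sides.

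LRIG1 and SMOC2 showed no common direction. LRIG1 is a transmembrane protein that restrains receptor tyrosine kinases of the EGFR family. Its levels were 8.31, 7.60 and 8.09 in CD44-positive arrays and 8.05, 7.52 and 8.18 in CD44-negative ones, in the order of the numbers. The difference of 0.08 had an interval of -0.42 to 0.59 (limma, adjusted p = 1.00), narrowing to -0.11 to 0.28 with the block (adjusted p = 0.903), and its sign turned with array weights and when CD44-positive array 01 or CD44-negative array 02 was left out. Of its 4 probe sets 2 lay above the limit, and the second of these differed by 0.04. Both arrays numbered 02 were low. Its relative LRIG3 differed by -0.27 (limma, adjusted p = 0.615 with the block) and LRIG2 by -0.08. The receptor genes EGFR, ERBB2, ERBB3, MET and RET differed by -0.02, 0.03, -0.06, -0.03 and -0.01.

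SMOC2 is a secreted calcium-binding matrix protein. It stood at 5.15, 5.41 and 5.65 in CD44-positive arrays 01, 02 and 03 and at 5.35, 5.70 and 5.45 in the CD44-negative arrays, close to the dim limit in both groups. The pairs differed by -0.20, -0.29 and 0.20, and the mean difference of -0.10 had an interval of -0.44 to 0.24 (limma, adjusted p = 1.00; 0.909 with the block). Its second probe set was dim, at 3.15 and 3.04. The related SMOC1 differed by 0.19 (limma, adjusted p = 0.649 with the block), with all 3 pairs above 0.

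**Figure D3:**
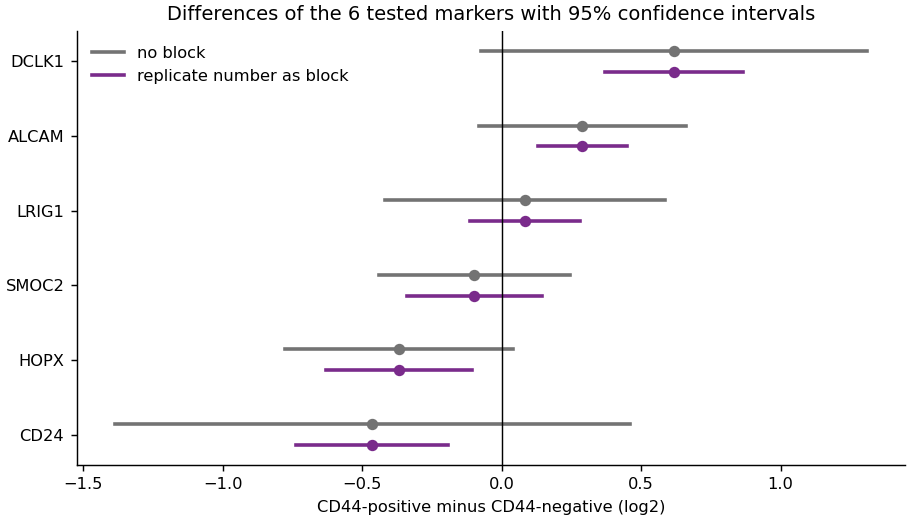
Differences (CD44-positive minus CD44-negative, log2) of the 6 tested markers, with limma's 95% confidence intervals from the fit without the block (grey) and with the replicate number as a block (purple). All 6 grey intervals include 0, and with the block those of DCLK1, ALCAM, HOPX and CD24 do not, although none of the 4 passed after adjustment over all genes.

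With the block, 4 of the 6 tested markers had an unadjusted limma p under 0.05 (DCLK1 0.000538, ALCAM 0.00359, CD24 0.00467 and HOPX 0.0123), 2 in each direction. Over all genes tested the share was 7.49%, with 4.24% higher and 3.25% lower. In the other lists such a p was found for 4 of 12 other stem cell markers, 3 of 6 fibroblast markers, 2 of 3 neuroendocrine markers and 3 of 14 paralogs. It was found for 1 of 17 partners, 1 of 9 epithelial genes, and 0 of 13 crypt base, 8 tuft, 7 colonocyte and 5 leukocyte genes. DCLK1, ALCAM, CD24 and HOPX also had 1 sign in 3 of 3 pairs, against 28.5% of all genes tested. A small p with the block mostly goes with 1 sign in all pairs, so this is not separate evidence. The markers were chosen with earlier results of these data known, so these shares are descriptions only. None of the 6 tested markers had groups that did not overlap. The share over all genes tested was 5.41%, so with 6 genes this count is near the background. The median difference of the 6 was -0.01, and that of all genes -0.0025. The signs of the markers were thus mixed.

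The markers were also read across the replicate numbers. For each gene the mean of the pair of arrays with one number was taken, and the range over the 3 numbers was 1.29 for CD24, 0.87 for DCLK1, 0.61 for LRIG1, 0.49 for ALCAM, 0.42 for HOPX and 0.31 for SMOC2. In all 6 this range was larger than the absolute difference between the groups, as it was in 88.6% of the genes tested. A range over 3 means tends to exceed a difference between group means even without any effect. This comparison thus does not show which effect is larger. The median range was 0.55 for the 6 and 0.21 for all genes. In CD24, DCLK1, LRIG1, ALCAM and HOPX number 02 was the extreme, highest for DCLK1 and lowest for the other 4. What the numbers stand for is not given in the labels. LGR5, the receptor that defines crypt base stem cells, also read low in both arrays numbered 02, at 6.0 and 6.07 against 6.86 to 7.23 in the other 4.

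EPCAM, PROM1 and OLFM4 were below the dim limit. EPCAM is an adhesion protein of nearly all simple epithelia and the usual marker of carcinoma cells. Its single probe set read 4.49, 4.63 and 4.08 in CD44-positive arrays 01, 02 and 03 and 4.90, 4.98 and 4.74 in the CD44-negative arrays. Every CD44-positive array lay below every CD44-negative array, by a gap of 0.10 at the closest, and the pairs differed by -0.41, -0.34 and -0.66. The means were 4.40 ± 0.29 and 4.87 ± 0.12 (SD, n = 3), with p = 0.1 in an exact two-sided permutation test, which cannot go lower with 3 arrays a group. Among all 19775 genes, dim ones included, 6.24% had groups that did not overlap. When dim genes were tested as well, the EPCAM difference of -0.47 had an interval of -0.80 to -0.13 (limma, adjusted p = 1.00), or of -0.67 to -0.26 with the block (adjusted p = 0.217). Near the background the size of a difference on an RMA scale is approximate.

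Other epithelial genes were read beside EPCAM, since the line is labelled as a colon cancer. The adhesion gene CDH1, which encodes E-cadherin, was dim as well, at 4.07 ± 0.08 and 4.17 ± 0.12 (SD, n = 3), and so were the epithelial splicing factor ESRP1 at 4.34 and 4.38, and the tetraspanin CD9 at 4.84 and 4.96. KRT19, an epithelial keratin, was dim at 4.34 and 4.61. The intestinal transcription factor CDX2 stood at 11.61 and 11.69, the keratins KRT18 at 9.95 and 10.05 and KRT8 at 8.64 and 8.68. The claudin genes CLDN3, at 5.41 and 5.35, and CLDN4, at 5.63 and 5.57, lay above the limit, so the epithelial adhesion and keratin genes read here fell on both sides of it. KRT20, a keratin of differentiated colonocytes, was 6.67, 7.23 and 7.02 in CD44-positive arrays and 6.33, 6.10 and 6.60 in CD44-negative ones, a difference of 0.63 with no overlap (limma, adjusted p = 1.00, and 0.298 with the block). Of the 11 epithelial markers 9 were tested, 6 read higher and 3 lower, and none passed in either fit. The summed intensity of this list ranged over 4631 to 5151 (CD44-positive) and 4670 to 5553 (CD44-negative). The next smallest p values belonged to GPA33 at 0.10, KRT18 at -0.10 and CLDN3 at 0.06. Transcripts of proteins that bind or cleave EpCAM had small differences. CLDN7 differed by -0.14, TSPAN8 by -0.02, the protease gene ADAM17 by 0.03, the presenilin PSEN2 by -0.04 and FHL2 by 0.07, and none of these passed in either fit. The interval of TSPAN8, whose levels followed the replicate number, was wide, at -1.33 to 1.28.

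PROM1 encodes CD133, a glycoprotein of membrane protrusions. Its single probe set read 3.17, 3.15 and 3.32 in CD44-positive arrays and 2.81, 3.18 and 3.20 in CD44-negative ones, and the groups overlapped. Its paralog PROM2 lay above the limit at 7.50 and 7.54, a difference of -0.04 with an interval of -0.29 to 0.22. OLFM4, a secreted glycoprotein of crypt base stem cells and neutrophils, read 2.63, 2.50 and 2.44 against 2.55, 2.85 and 2.81, with pair values of 0.08, -0.35 and -0.37. Of its relatives OLFM1 and OLFM2 differed by 0.01 and -0.01, and OLFM3 was dim. A dim probe set places a limit on what this array could show and does not show that the gene is silent.

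BMI1 is a subunit of polycomb repressive complex 1, which compacts chromatin. The probe set it shares with COMMD3-BMI1 read 11.36, 11.26 and 11.54 in CD44-positive arrays and 11.41, 11.06 and 11.58 in CD44-negative ones. The means of 11.39 ± 0.14 and 11.35 ± 0.26 (SD, n = 3) differed by 0.04, with pair values of -0.05, 0.20 and -0.04, and the shared probe set was not tested. Of the subunits that join BMI1 in the complex, RING1 differed by 0.07, PHC1 by -0.05, PHC2 by 0.11, PHC3 by 0.02, CBX2 by -0.10, CBX7 by 0.03 and CBX6 by 0.18. The CBX6 groups did not overlap, at 8.96 ± 0.04 and 8.77 ± 0.13 (SD, n = 3; limma, adjusted p = 0.662 with the block). The BMI1 paralogs PCGF1, PCGF2, PCGF3, PCGF5 and PCGF6 differed by -0.03, 0.11, 0.06, -0.22 and -0.03. None of these genes passed in either fit. Over all the marker families, 14 paralogs were tested, 6 higher and 8 lower with a median of -0.02, and 17 partners, 8 higher and 9 lower with a median of -0.01, and none passed in these fits.

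The markers were set beside 2 lists of other stem cell genes. Of 13 tested genes of the LGR5-positive crypt base cell, 4 read higher and 9 lower, with a median of -0.05, and none passed with or without the block. The lowest unadjusted p belonged to ASCL2, the transcription factor that sets crypt base identity, at 8.25 ± 0.15 against 8.49 ± 0.12 (SD, n = 3), a difference of -0.24 with no overlap (limma, adjusted p = 1.00, and 0.679 with the block). TNFRSF19, RGMB and RNF43 followed at -0.16, -0.15 and -0.12. Of 12 other stem cell or tumour-initiating cell markers tested, 7 read higher and 5 lower, with a median of 0.02, and none passed in either fit. The telomerase gene TERT differed by -0.26, with pair values of -0.25, -0.20 and -0.32 (limma, adjusted p = 0.384 with the block), the chemokine receptor CXCR4 by 0.32 (0.621), the RNA-binding MSI2 by -0.09 and the transcription factor KLF4 by -0.12. Of all genes tested 48.9% read higher. Both lists, like the markers, were chosen with earlier results of these data known.

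**Figure D4:**
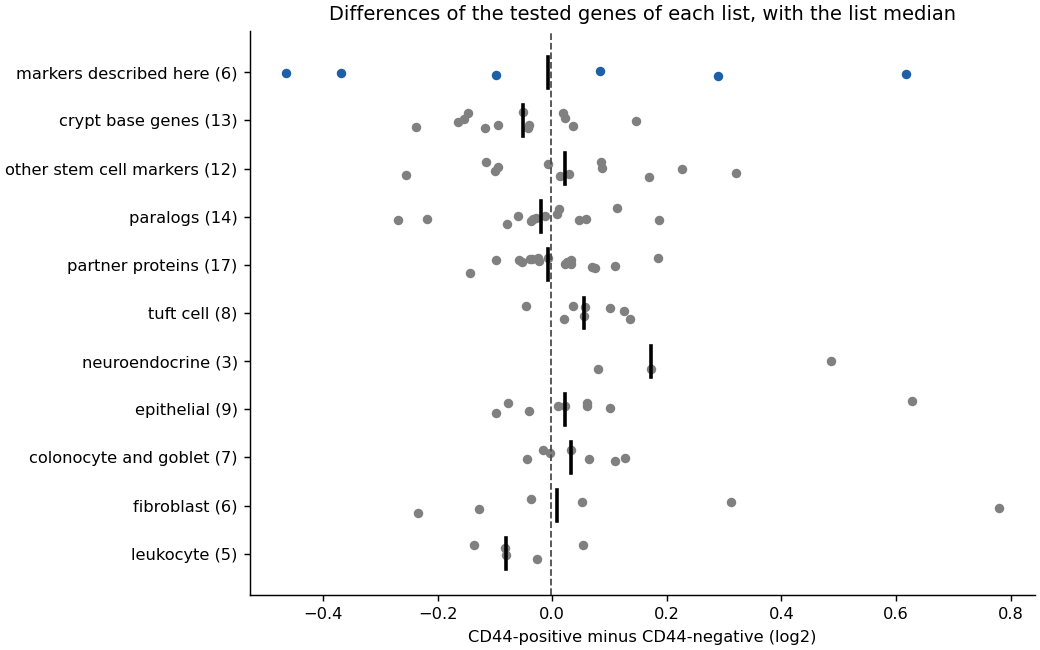
Difference (CD44-positive minus CD44-negative, log2) of every tested gene of each list, with the number tested in brackets. Black bars are list medians and the dashed line is the median of all genes tested, -0.0025. The 6 markers described here, in blue, spread from -0.46 to 0.62 around a median of -0.01.

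Markers of fibroblasts, leukocytes and colonocytes were read in the same arrays. Of 10 fibroblast markers 6 were tested, 3 higher and 3 lower, with a median of 0.01 and none past the threshold in either fit. Within the list COL3A1 differed by 0.78 (limma, adjusted p = 0.0526 with the block), COL1A2 by 0.31 with no overlap, COL1A1 by -0.23 with no overlap and PDGFRB by -0.13. LUM, the matrix proteoglycan lumican, was dim on average but read 5.63, 4.18 and 3.84 in CD44-positive arrays and 2.36, 2.79 and 2.44 in CD44-negative ones, with no overlap (limma with dim genes included, adjusted p = 1.00, and 0.173 with the block). FAP and POSTN were dim in both groups. The summed intensity of the list ranged over 1536 to 3726 (CD44-positive) and 1224 to 2351 (CD44-negative), so the ranges overlapped. The sums were not compared within pairs. Of 15 leukocyte markers 13 had a probe set, 8 of these were dim, including CD14, LYZ and MPO, and the 5 tested had a median of -0.08, with ITGAM at -0.14, PTPRC at -0.08, CD3D at -0.08 and CD3E at 0.05. The 7 tested colonocyte and goblet cell genes had a median of 0.03, with GUCA2A at 0.13, AQP8 at 0.07, TFF3 at -0.04 and CA2 at 0.11, and none passed in these fits. The summed intensities of the leukocyte list were 510 to 535 (CD44-positive) and 515 to 571 (CD44-negative), and those of the colonocyte list 498 to 568 and 471 to 548. The part of other cell types in the marker differences was not tested.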

How the data were processed

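Total RNA was turned into biotinylated cRNA for Affymetrix arrays, per the labels' protocols. The deposited values are intensity values, linear by their range, and were made with RMA, per the submitters' processing notes; its version and software are not given in the sources used here. RMA in general subtracts background, normalizes by quantiles and summarizes probes. RMA can compress differences near background. log2 was taken of the deposited intensity values, with no pseudocount. Platform annotation named 1 gene for 41091 of 54675 probe sets, several for 1801 and none for 11721, and 62 control probe sets were left out. For 41037 of the probe sets with 1 gene, the gene ID was found in RefSeq and the symbol was taken from there. For each of 19775 genes 1 probe set was kept, that of highest 6-array mean. Genes under the 30th percentile (5.12) were left out, leaving 13842.

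Groups were compared with limma 3.58.1 (R 4.3.3, lmFit and eBayes, two-sided, Benjamini-Hochberg over all genes tested, threshold 0.05). Errors are the SD over 3 arrays or limma's SE, and the number of arrays limits the precision. As a check of pairing, correlations of the arrays' deviations from their group's mean were 0.465, 0.689 and 0.626 for equal numbers and -0.496 to -0.107 for unequal ones, so the numbers were taken, from the data, to pair the arrays. The fit without the block is the main one. The markers, gene lists, named-gene rule and motifs were chosen with earlier results of these data known. Named were all markers, up to 4 genes of each list with the smallest p, paralogs set beside a marker, and the 3 closest profiles of the markers with the most positive and most negative difference; partners and other list genes beyond these were named after their values were seen. Tables and figures used Python 3.11.15, pandas 2.3.3, numpy 2.4.6 and matplotlib 3.10.9.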

Additional observations from a re-analysis of the deposited data

How the results depend on the processing

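Without the replicate block, no marker passed in any of the 15 other settings run, and with the block alone none passed either. With the block and one further change, 1 marker passed under a variance trend (DCLK1), 1 under array weights (DCLK1), and 0 to 1 when a pair of arrays was left out (CD24 without pair 02, DCLK1 without pair 03). ALCAM, CD24, DCLK1 and HOPX kept their direction in every alternative in which they were tested, 25, 24, 23 and 21 of 25, with ranges of 0.11 to 0.43, -0.91 to -0.18, 0.34 to 0.96 and -0.59 to -0.22. The block, another dim limit, a variance trend or testing every probe set leaves the difference itself unchanged, so those settings could not turn a sign. DCLK1 and HOPX were not tested where probe sets were averaged. LRIG1 changed sign with array weights (-0.12), without CD44-positive array 01 (-0.07) or CD44-negative array 02 (-0.11), and with the block without pair 01 (-0.0047), over a range of -0.12 to 0.28. SMOC2 changed sign without CD44-positive array 01 (0.030) or CD44-negative array 02 (0.0038), over a range of -0.25 to 0.030. Over all genes, the count past the threshold was 0 without the block and 0 to 1 when single arrays were left out. It was 2 with dim genes included, 1 without _s_at and _x_at probe sets, 3 with every probe set and 1 with array weights. With the replicate block it was 8, and with the block and one further change it was 4 (quantile normalization), 5 (dim genes included), 6 (mean of probe sets), 28 (every probe set), 78 (variance trend), 43 (array weights) and 10, 63 and 127 without pair 01, 02 and 03. The cause of these changes was not tested. Signal near background limits EPCAM, PROM1, OLFM4, SMOC2, HOPX with its tested probe set included, and the dim probe sets of DCLK1.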
